A study of Homo sapiens with 16 samples.

Results

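The comparison concerned the genomic regions at which the coactivator AIB1 was listed by chromatin immunoprecipitation sequencing (ChIP-seq) in parental cells and in D4 cells, in the pair of lists whose names carry MCF10A. Members were the clusters (regions called by the authors) of those lists, 490 in the parental list and 138 in the D4 list. A cluster overlapping one of the other list by at least 1 bp was called shared. The 561 different clusters, of 897 in all 4 lists of the series, fell into 423 that were parental only, 67 that were shared and 71 that were D4 only.

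The study held 16 samples in 4 groups: MCF10A, MCF10A-D4, MCFDCIS and MCFDCIS-D4, each with 3 AIB1 ChIP samples and 1 input sample. MCF10A is an immortalized, non-tumorigenic human mammary epithelial line, and MCFDCIS is a derivative of it that forms lesions resembling ductal carcinoma in situ. All cells were grown in DMEM:F12 with horse serum, EGF, hydrocortisone, cholera toxin and insulin, so a glucocorticoid and growth factor were present in the parental and the D4 cells alike. The labels do not say how the D4 cells were made or whether they were 1 clone, and no label states that the 3 ChIP samples of each group were grown as separate cultures. Each group is represented by 1 list without a value per sample, so every comparison here is between 2 lists and no test over replicates could be made. The sample descriptions cite the MCFDCIS-named lists for MCF10A samples and the MCF10A-named lists for MCFDCIS samples, while the parental or D4 status matches. For that reason the name MCF10A-named is used throughout, and which line is behind the lists cannot be told apart. The labels also describe the cell type of both lines as ductal carcinoma in situ. A check of either line by its expressed markers was not possible with region lists. The lists used here held no cluster on chromosomes 20, 21 or 22, so the locus of NCOA3 on chromosome 20 is not analysed here.

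AIB1, also called SRC-3 and encoded by NCOA3, does not bind DNA by itself. It is brought to chromatin by nuclear receptors and by other transcription factors such as AP-1, and it recruits histone acetyltransferases that raise transcription. AIB1-Δ4 is known as an isoform that lacks the N-terminal part of the full-length protein. In basal mammary epithelium the sites used by AP-1, TEAD and p63 are mostly distal enhancers, and the glucocorticoid receptor binds a palindromic element, the glucocorticoid response element (GRE).

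A few sequences from clusters of each class show the motifs counted in the results that follow. Each window is 120 bases of the GRCh37 plus strand, 5′ to 3′. It was taken at a cluster among the highest-scored of its class with that motif or at a promoter. Motifs were searched over up to 500 bp around the middle of a cluster, so a match can lie outside the cluster itself. This was so for the SMG9 match and the TGFBR2 GRE. The motifs were the GRE (GNACANNNTGTNC) and the AP-1 element (TGANTCA), to which FOS and JUN proteins bind. In the parental-only windows, the PER1 cluster carried a GRE and the PRKCH cluster a pair of AP-1 matches, and the capitals mark these matches.
PER1 (chr17:8057725-8057844): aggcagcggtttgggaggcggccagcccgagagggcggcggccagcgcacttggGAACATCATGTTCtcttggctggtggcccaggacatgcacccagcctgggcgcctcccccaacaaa
PRKCH (chr14:61932988-61933107): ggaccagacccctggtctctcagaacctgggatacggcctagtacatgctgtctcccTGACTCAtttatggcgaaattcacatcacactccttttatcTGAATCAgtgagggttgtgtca

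In the shared windows, the capitals mark the GRE near DUSP10, an AP-1 match near SMG9 and, at the CYP1B1 promoter, matches to TNGCGTG, the core bound by the aryl hydrocarbon receptor (AHR). The DUSP10 window held the only GRE among the 67 shared clusters. A shared cluster near MYC with a higher D4 score than SMG9 also had an AP-1 match and is described without its sequence.
DUSP10 (chr1:222065216-222065335): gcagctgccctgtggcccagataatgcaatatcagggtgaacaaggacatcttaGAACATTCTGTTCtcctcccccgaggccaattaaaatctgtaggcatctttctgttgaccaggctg
SMG9 (chr19:44257315-44257434): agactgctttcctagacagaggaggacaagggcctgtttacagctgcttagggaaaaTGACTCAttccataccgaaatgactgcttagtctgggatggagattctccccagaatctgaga
CYP1B1 (chr2:38304096-38304215): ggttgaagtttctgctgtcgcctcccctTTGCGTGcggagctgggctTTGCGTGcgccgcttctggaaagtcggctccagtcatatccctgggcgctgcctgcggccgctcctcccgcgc

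In the D4-only windows, the capitals mark AP-1 matches downstream of TP63 and at the ERCC1 promoter, and the GREs near TGFBR2 and PDSS2. Those near TGFBR2 and PDSS2 were the only GREs among the 71 D4-only clusters.
TP63 (chr3:189632758-189632877): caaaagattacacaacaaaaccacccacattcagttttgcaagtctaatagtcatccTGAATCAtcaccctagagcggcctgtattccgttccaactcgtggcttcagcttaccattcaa
ERCC1 (chr19:45927596-45927715): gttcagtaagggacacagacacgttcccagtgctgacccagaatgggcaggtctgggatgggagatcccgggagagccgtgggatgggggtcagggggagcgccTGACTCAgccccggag
TGFBR2 (chr3:30638816-30638935): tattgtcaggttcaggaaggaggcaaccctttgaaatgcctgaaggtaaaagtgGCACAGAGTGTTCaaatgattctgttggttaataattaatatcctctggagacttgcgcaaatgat
PDSS2 (chr6:107568543-107568662): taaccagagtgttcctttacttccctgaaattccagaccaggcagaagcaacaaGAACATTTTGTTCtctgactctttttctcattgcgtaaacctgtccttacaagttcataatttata

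The D4 list was smaller than the parental list and was only partly contained in it. Of the 138 D4 clusters, 67 were also parental (48.6%, exact Clopper-Pearson 95% interval 39.96 to 57.2%), and of the 490 parental clusters the same 67 were also in the D4 list (13.7%, 10.8 to 17.04%). All intervals here cover counting error over clusters only, because the sequencing depth behind the lists is unknown. Every one of the 67 shared clusters had the same start and end in both lists, including 22 of 22 that were wider than 500 bp. The same held for all 307 overlaps between the MCF10A-named and MCFDCIS-named parental lists. All 561 starts lay 1 base after a multiple of 50, and all widths were 10 bp more than a multiple of 50. The regions therefore lie on a common grid with common boundaries, and whether the authors set them jointly over the samples is not stated in any source at hand. Leaving out the 3 dense regions described last lowered the shared part of the D4 list to 39.8%. Among clusters above the median score of their own list it was 18.5% (12 of 65), where a pair counts only if both its scores pass.

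The authors gave each cluster a score whose definition is not stated, so it was used only to rank clusters within a list. Scores started at 6.995 in the parental list and at 7.008 in the D4 list, which places the lower limit of both lists near the same value. The shared part was smallest in the highest score bin of both lists, although the clusters ranked 1 to 3 in the D4 list were shared. In the parental list the shared part was 24 of 125 clusters (19.2%) in score bin 1 of 4 (the lowest), 18 of 124 (14.5%) in bin 2, 14 of 119 (11.8%) in bin 3 and 11 of 122 (9.02%) in bin 4 (the highest). The median rank percentile was 39.1 for shared and 51.7 for parental-only clusters, where a higher percentile means a higher score. In the D4 list the shared part was 18 of 33 (54.5%), 19 of 40 (47.5%) and 21 of 35 (60%) in bins 1 to 3 and 9 of 30 (30%) in bin 4, with wide and overlapping intervals. The median D4 percentile was 41.7 for shared and for D4-only clusters. Among the 20 clusters of the D4 list ranked 1 to 19, with ties, 13 were D4 only.

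**Figure D1:**
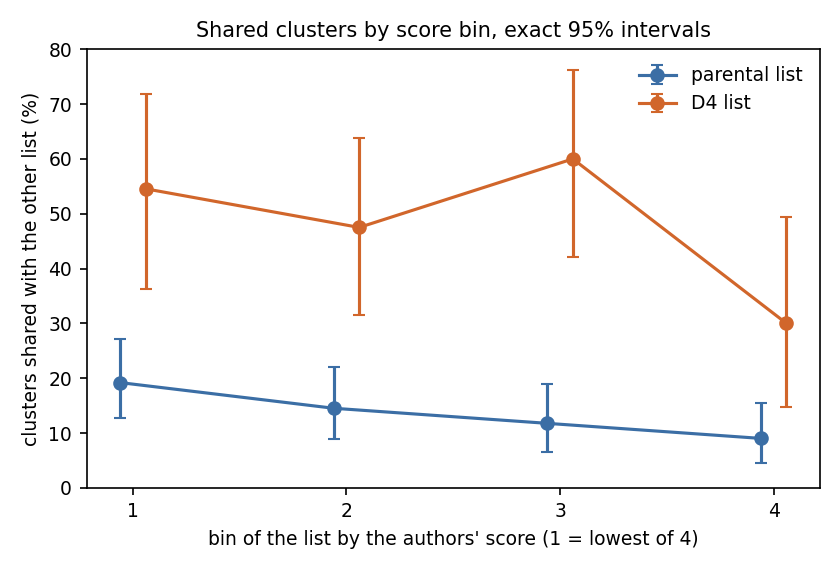
Share of clusters that are shared with the other MCF10A-named list (vertical axis, %) in each of 4 bins of a list by the authors' score (horizontal axis, 1 is lowest); points are shares and bars exact 95% intervals. The parental list falls from 19.2% to 9.02%, and the D4 list is lowest in bin 4 at 30%.

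Over the 67 shared clusters the scores of the lists were weakly related (Spearman's rho 0.199, Pearson's r 0.048, as a description across clusters, which are not independent replicates). D4 scores were heavily tied, with 57 different values among 138 clusters. Of these clusters, 31 had a score of 8.38 and 22 had a score of 9.24. An intergenic cluster 149.7 kb from DUSP10, which encodes a phosphatase of stress-activated MAP kinases, ranked 3 of 490 in the parental list with a score of 89.0 and 63 of 138 in the D4 list with 8.58. The CYP1B1 promoter cluster ranked high in both lists, 22 with a score of 46.3 in the parental list and 4 with 19.7 in the D4 list. CYP1B1 encodes a monooxygenase that is a classical target of the AHR. The SMG9 intronic cluster ranked 287 in the parental list and 3 in the D4 list, and SMG9 takes part in nonsense-mediated mRNA decay. An intergenic cluster 28.3 kb from FGF1, a growth factor gene, ranked 159 in the parental list with a score of 16.2 and 2 in the D4 list with 31.8.

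**Figure D2:**
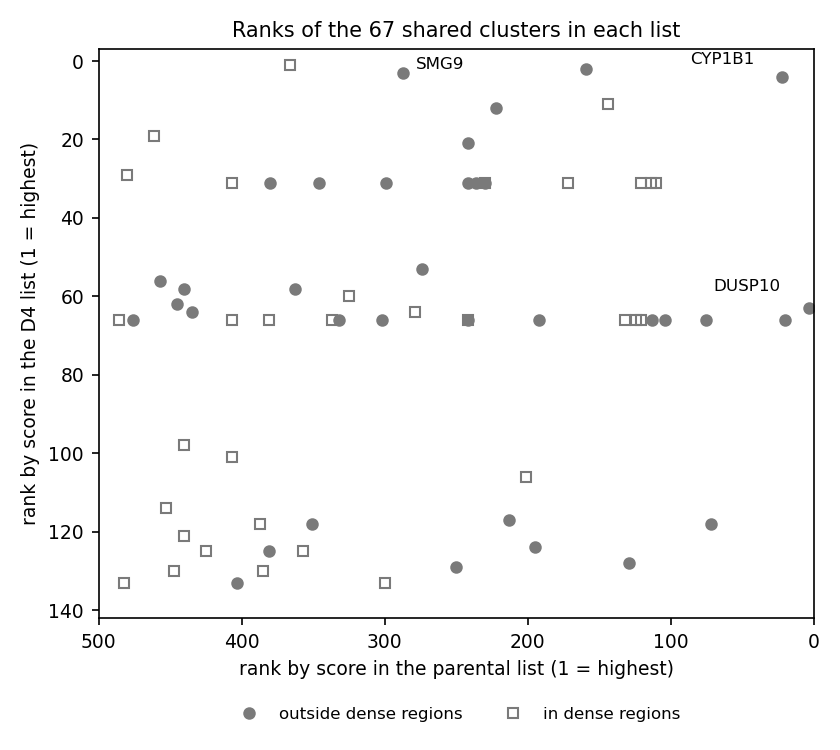
Rank of each of the 67 shared clusters by the authors' score in the parental list (horizontal axis) and in the D4 list (vertical axis), with rank 1 at the right and at the top; squares lie in the dense regions and circles outside them. Points spread over the whole area and form rows at tied D4 scores, with CYP1B1 high in both lists and DUSP10 high in the parental list.

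Among parental-only clusters, the highest score was 96.5, in intron 1 of PRKCH (chr14:61932951-61933160), which encodes the epithelial protein kinase C eta. The next was an intergenic cluster 54.5 kb from CDKN2AIPNL at 94.0 (chr5:133802101-133802660). A cluster in intron 1 of PER1 (chr17:8057651-8057860), a circadian repressor that glucocorticoids induce, had a score of 86.6. Clusters near the homeobox gene IRX4 (74.2), in VAV2, which encodes a guanine nucleotide exchange factor (68.0), at DNAJB12, which encodes a chaperone of the endoplasmic reticulum (68.0), and in RAI1, a transcriptional regulator gene (63.1), followed among those off chromosome 8. All 8 of the highest-scored parental-only clusters were also in the MCFDCIS-named parental list.

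Among D4-only clusters, the highest score was 19.7, at an intergenic cluster in the TP63 region, 125 kb from the nearest TP63 transcription start site (TSS) (chr3:189632751-189632860). TP63 encodes p63, the transcription factor that maintains basal epithelial cells. The parental list had its own cluster inside a TP63 intron, ranked 145 with a score of 17.6 (chr3:189551851-189552010). The next D4-only clusters lay in introns of IGSF23 (19.3), TTC7A (18.8) and DNAJC3 (18.1), the last of which encodes an endoplasmic reticulum co-chaperone. A cluster 206 kb from the start of TENM2, a teneurin adhesion gene, and one in an intron of PNLIPRP3 each had 17.4. Clusters near ETS1, a transcription factor gene (297 kb), and PSAP, the gene for the lysosomal precursor prosaposin (19.8 kb), had 15.1. The lowest D4-only score was 7.008.

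Few clusters of any class lay at promoters. Clusters within 1 kb of a protein-coding TSS, called promoter clusters here, were 43 of 423 parental only (10.2%, 7.45 to 13.4%), 10 of 67 shared (14.9%, 7.40 to 25.7%) and 3 of 71 D4 only (4.23%, 0.880 to 11.9%). The D4-only share was 10.7 percentage points below the shared one (Newcombe 95% interval of the difference, 0.719 to 21.5 points below). The D4-only minus parental-only difference was −5.94 points, with an interval that includes 0 (−10.2 to 1.95), and counting starts of genes of any type turned it to 2.89 points. Introns held 32 D4-only clusters (45.1%), 139 parental-only clusters (32.9%) and 23 shared clusters (34.3%), and the D4-only share exceeded the parental-only one by 12.2 points (0.261 to 24.5). Exons outside promoters held 4 D4-only, 10 parental-only and 2 shared clusters, and the remaining 32 D4-only, 231 parental-only and 32 shared clusters were intergenic. The median distance to the nearest protein-coding TSS was 28.8 kb (quartiles 7.41 and 95.9) for parental only, 19.4 kb (3.17 and 75.7) for shared and 30.8 kb (8.12 and 118) for D4 only.

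The 3 D4-only promoter clusters lay at ERCC1, NME1 and ZBTB20. ERCC1, a nucleotide excision repair gene, had a cluster across its start with a score of 11.8, rank 23 of 138 (chr19:45927451-45927860). The shared intronic cluster of ERCC1 lay 11.6 kb from the start of FOSB, an AP-1 subunit gene, so the locus held 1 cluster of each of those classes. NME1, which encodes a nucleoside diphosphate kinase, had a cluster 0.01 kb from its start with a score of 7.88 (chr17:49230851-49230910). ZBTB20, a zinc finger repressor gene, had one of 7.02 (chr3:114789251-114789260), close to the lower limit of the list.

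The 10 shared promoter clusters included those at CYP1B1, SREBF1, ABLIM3, WDR55, CEP120, SLC29A3 and PDXDC1, and a pair at PDE4DIP, 1 of them also at the start of AL590452.1. ABLIM3 encodes an actin-binding protein, SREBF1 the sterol-regulated transcription factor SREBP-1, and SLC29A3 a nucleoside transporter. Their D4 ranks ran from 4 (CYP1B1) to 133 (PDXDC1), and the central 100 bp of the PDXDC1 cluster had another match in the genome. The cluster at the SREBF1 start was 3060 bp wide (chr17:17726301-17729360) and ranked 124 in the parental and 66 in the D4 list.

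The highest-scored of the 43 parental-only promoter clusters was that of SCNN1A, which encodes the alpha subunit of the epithelial sodium channel, with a score of 47.0 and rank 18 of 490 (chr12:6485501-6485560). KLF13 (45.5), TPRG1 (44.8), TFAP2A (25.4), FKBP5 (25.3), SEPTIN9 (25.03), AXL (24.3), SLC41A3 (23.8), IL1R1 (22.5) and P4HA2 (22.2) followed. Of these 10 promoter windows, those of SCNN1A, KLF13, TPRG1, FKBP5, SLC41A3 and IL1R1 held a GRE. FKBP5 encodes a co-chaperone of steroid receptors, TFAP2A an epithelial transcription factor, AXL a receptor tyrosine kinase and IL1R1 the interleukin-1 receptor.

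Motifs were counted on both strands of the 500 bp around the middle of each cluster. They were set against 541219 windows of the same length placed every 5 kb along the chromosomes. Most clusters were narrower than 500 bp, so a motif said to be in a cluster can lie beside it. Only AP-1 was also counted within the clusters alone. The GRE was found in 48 of 423 parental-only clusters (11.3%, 8.49 to 14.8%), 1 of 67 shared clusters (1.49%, 0.038 to 8.04%) and 2 of 71 D4-only clusters (2.82%, 0.343 to 9.81%). It was in 0.630% of genome windows and in 0.946% of windows 5 kb to either side of the parental-only clusters. The parental-only share exceeded the D4-only share by 8.53 points (1.14 to 12.5 points) and the shared one by 9.85 points (2.83 to 13.4 points). Within the parental-only class, the GRE was in 7 of 207 clusters at or under the list's median score (3.38%) and in 41 of 216 above it (18.98%). Of the 48 parental-only clusters with a GRE, 43 (89.6%) were also in the MCFDCIS-named parental list, 7 were promoter clusters and 3 were in the dense regions.

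The AP-1 element was frequent in both classes that differ between the lists and less so in the shared class. It was in 159 parental-only clusters (37.6%, 33.0 to 42.4%), 29 D4-only clusters (40.8%, 29.3 to 53.2%) and 15 shared clusters (22.4%, 13.1 to 34.2%), against 15.1% of genome windows. The D4-only and parental-only shares differed by 3.26 points, with an interval that includes 0 (−8.41 to 15.7). With only the cluster itself searched, AP-1 was in 21 of 71 D4-only and 97 of 423 parental-only clusters. That difference was 6.65 points (−3.62 to 18.7). Above the median score of their list, AP-1 was in 14 of 35 D4-only clusters (40%) and 94 of 216 parental-only clusters (43.52%). With classes assigned again within the clusters above the median, the D4-only minus parental-only difference was −7.96 points (−20.96 to 6.85). Shared clusters that passed in 1 list only then counted as D4 only or parental only. The shared class was below parental only by 15.2 points (3.03 to 24.8 points) and below D4 only by 18.5 points (2.90 to 32.7 points). The flanks of D4-only clusters held AP-1 in 21.8%, those of parental-only clusters in 15.5% and those of shared clusters in 15.7%.

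The CEBP element (TTGCNNAA) gave the same order as AP-1, with 46.5% of D4-only, 39.2% of parental-only and 22.4% of shared clusters against 25.2% of genome windows. The D4-only share exceeded the shared one by 24.1 points (8.22 to 38.3). The TEAD element (GGAATG), bound by the partners of YAP, was in 41.4% of parental-only clusters against 24.4% of genome windows, and in 28.2% of D4-only and 22.4% of shared clusters. D4 only was below parental only by 13.2 points (0.936 to 23.5 points). D4-only clusters and their flanks both held the TEAD element in 28.2%. At least 1 of AP-1, CEBP and TEAD was present in 323 parental-only clusters (76.4%), 53 D4-only clusters (74.6%) and 31 shared clusters (46.3%, 34.0 to 58.9%).

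The GC-box of the SP and KLF factors (GGGCGG) was in 20.6% of parental-only, 13.4% of shared and 9.86% of D4-only clusters, against 6.35% of genome windows, with D4 only 10.7 points below parental only (0.910 to 17.2 points). The GC content moved with this. The median GC of the central 500 bp was 48.2% in parental-only, 44% in shared and 41.4% in D4-only clusters, against 40% in genome windows (quartiles 35.0 and 45.6). The D4-only minus parental-only difference of medians was −6.8 points. The part of GC content in the motif shares was not tested. The RUNX element (TGTGGT) was at 35.9%, 35.8% and 35.2% in parental-only, shared and D4-only clusters, against 30.7% of genome windows. The p53 half-site was at 16.8%, 22.4% and 14.1% in the same order, against 12.6%. The estrogen response element (GGTCANNNTGACC) was in 0 of the 561 clusters (which allows up to 0.655%), and 0.041% of genome windows held it. Matches to these letters are descriptions and do not show that a factor was bound.

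**Figure D3:**
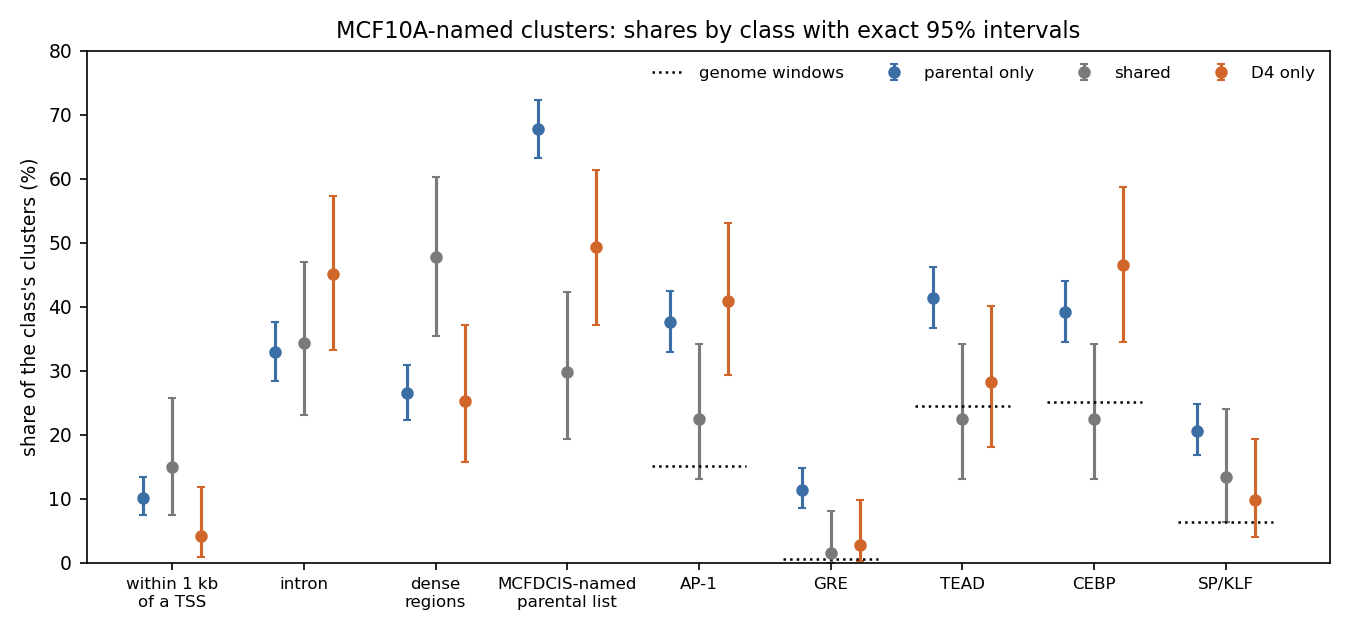
Share of clusters in each class (vertical axis, %) for position, presence in the MCFDCIS-named parental list and motifs in the central 500 bp (horizontal axis); points are shares, bars exact 95% intervals and dotted lines the share of genome windows with the motif. GRE is at 11.3% in parental-only clusters and under 3% in the others, and AP-1 and CEBP are lowest in shared clusters.

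The lists named for the other line separated the classes further. Of the parental-only clusters, 287 of 423 (67.8%, 63.2 to 72.3%) were also in the MCFDCIS-named parental list. The same was true of 35 of 71 D4-only clusters (49.3%, 37.2 to 61.4%) and of 20 of 67 shared clusters (29.9%, 19.3 to 42.3%). The D4-only share was 18.6 points below the parental-only share (6.30 to 30.6 points) and 19.4 points above the shared one (3.11 to 34.3 points). Above the median score of their list, it was 17 of 35 D4-only clusters (48.6%) and 184 of 216 parental-only clusters (85.2%). In the full lists shared was 38.0 points below parental only (25.3 to 48.5 points). Outside the dense regions the shares were 81.4%, 56.6% and 42.9% for parental only, D4 only and shared. Among parental-only clusters the share was 49.8% at or under the list's median score and 85.2% above it. About as many D4-only clusters were thus listed for the parental state under the other line name (35) as were not (36). The 35 included the clusters near TP63, TGFBR2, ETS1, DNAJC3, PNLIPRP3, PDSS2 and NME1, and both D4-only GREs. The 36 included IGSF23, TTC7A, MYLK, ERCC1 and both ZBTB20 clusters. The MCFDCIS-named D4 list held 32 parental-only clusters (7.57%), 7 shared clusters (10.4%) and 2 D4-only clusters (2.82%). The 2 were in an intron of ACTN1, which encodes alpha-actinin, and at an intergenic region 175 kb from H3-7.

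Genes were assigned by a protein-coding TSS within 100 kb of a cluster, among 18547 protein-coding genes. The parental list reached 791 genes (4.26%) and the D4 list 202 (1.09%). Parental-only clusters reached 740 (3.99%), shared clusters 111 (0.598%) and D4-only clusters 120 (0.647%). Of the 202 genes reached by D4 clusters, 131 were also reached by parental clusters (64.9% of the D4-reached and 16.6% of the parental-reached genes), and 71 were reached by D4 clusters alone. Without the dense regions the former share was 54.8%. Within 1 kb of a TSS the parental list reached 58 genes, the D4 list 14 and both 10. Across 14 gene lists with 318 genes tested, the parental list reached 47 genes (14.8%) and the D4 list 9 (2.83%), of which 6 were reached by both. These lists were written for mammary epithelium and its medium with earlier results of these data known, so their shares are descriptions.

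Glucocorticoid targets were the list in which the states differed most by count. The parental list reached 11 of 24 (45.8%, 25.6 to 67.2%, against 4.26% of all genes) and the D4 list 0 of 24 (which allows up to 14.2%, against 1.09% of all genes). At 1.09% of all genes, a D4 count of 0 among 24 lies near the background. The list was written with earlier results of these data known, so the parental share is a description and its interval is no test against 4.26%. All 13 clusters within 100 kb of these genes were parental only, as were 423 of all 561 clusters. Of the 13, 9 held a GRE, 4 held an AP-1 match and 11 were also in the MCFDCIS-named parental list. PER1 had the highest score (86.6, rank 4 of 490), and the SCNN1A promoter (47.0, rank 18) came next. A cluster 1.14 kb from MT2A, a metallothionein gene, scored 43.3 (rank 26). FKBP5 had a promoter cluster (25.3, rank 84) and one 3.39 kb away (7.98, rank 429). KLF9, a transcription factor gene induced by glucocorticoids, had one at 5.43 kb (18.9), and ANGPTL4, which encodes a lipoprotein lipase inhibitor, one at 7.41 kb (17.2, rank 150). A cluster 4.45 kb from DUSP1, a MAP kinase phosphatase gene, scored 8.20 (rank 395), and the ERGIC1 cluster 98.0 kb from DUSP1 scored 36.5 (rank 35). ZBTB16 had 3 intronic clusters, of which those with scores of 20.9 and 24.8 lay within 100 kb of its start, and the feedback inhibitor gene ERRFI1 (13.1, at 44.8 kb) and the stress gene GADD45B (34.9, at 52.6 kb) were reached without a GRE. Scores spanned most of the parental range, from rank 4 to rank 429. None of these clusters was in the D4 list, which held 13.7% of all parental clusters.

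The GREs of the clusters near glucocorticoid targets other than PER1, shown above, are printed to compare their spacing and half-sites. Each line is 41 bases of the GRCh37 plus strand with the 13-base match in capitals. The matches at MT2A, ZBTB16 and ERGIC1 lay inside the cluster, and that of the first FKBP5 line overlapped its cluster in part. Those at SCNN1A, KLF9, ANGPTL4 and in the second FKBP5 line lay beside the cluster.
SCNN1A (chr12:6485471-6485511): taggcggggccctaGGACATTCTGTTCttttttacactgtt
MT2A (chr16:56641240-56641280): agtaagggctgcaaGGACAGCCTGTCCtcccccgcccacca
FKBP5 (chr6:35695877-35695917): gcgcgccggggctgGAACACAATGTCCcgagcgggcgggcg
FKBP5 (chr6:35699782-35699822): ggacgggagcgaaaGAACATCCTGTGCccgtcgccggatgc
KLF9 (chr9:73035028-73035068): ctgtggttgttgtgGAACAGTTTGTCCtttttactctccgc
ANGPTL4 (chr19:8420749-8420789): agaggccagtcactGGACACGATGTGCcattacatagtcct
ZBTB16 (chr11:114030913-114030953): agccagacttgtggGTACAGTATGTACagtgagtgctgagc
ERGIC1 (chr5:172296243-172296283): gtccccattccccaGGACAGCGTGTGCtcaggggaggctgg

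Basal and myoepithelial genes were reached in 9 of 25 cases by the parental list and in 2 of 25 by the D4 list. Over all genes the shares were 4.26% and 1.09%. On the parental side, 1 promoter cluster at KRT17 (14.1, rank 195) lay within 100 kb of KRT14, KRT16 and KRT17, and 1 cluster 1.41 kb from KRT6A (16.98, rank 153) lay within 100 kb of KRT5, KRT6A and KRT6B, so these 6 neighbouring keratin genes are not independent counts. The KRT17 locus held 3 parental-only clusters in all. TP63 (17.6) and EGFR (31.6, at 51.4 kb) were also reached. The D4 list reached MYLK, which encodes myosin light chain kinase, by a D4-only cluster at 14.9 kb (10.9, rank 26 of 138), and ITGB4, which encodes the hemidesmosome integrin subunit beta 4, by a D4-only cluster at 20.6 kb (9.24, rank 31). The 2 lists reached no basal gene in common. Both lists reached 131 of all 18547 genes, so finding none among 25 lies near the background.

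Of 34 ERBB, IGF and insulin signalling genes, the parental list reached 6 and the D4 list 0. These were the receptor EGFR, the ligands EREG (20.1, at 9.49 kb) and AREG (the same cluster, at 70.3 kb), the adaptor SHC1 (14.3, at 26.8 kb), HRAS (13.4, at its promoter) and the kinase AKT2 (12.1, at its promoter). Of 30 YAP-TEAD pathway genes, the parental list reached 4 and the D4 list 0. They were AXL (24.3, at its promoter), the TEAD cofactor VGLL4 (13.7, at its promoter), AMOTL2, which encodes a YAP-binding protein (26.7, at 19.4 kb), and the matricellular target CCN1 (7.30, at 48.1 kb). With 1.09% of all genes reached by the D4 list, a count of 0 in lists of this size was near the background. The parental list reached 4.26% of all genes.

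AP-1 and immediate early genes were reached in 4 of 24 cases by the parental list (FOS, FOSB, FOSL1 and MYC) and in 2 by the D4 list (FOSB and MYC). Over all genes the shares were 4.26% and 1.09%. FOS was reached at 24.2 kb (17.6, rank 145) and FOSL1 at 15.3 kb (7.55, rank 450), both by parental-only clusters. Extracellular matrix and protease genes were reached in 6 of 23 cases by the parental list and in 1 by the D4 list, which was PLAUR, the urokinase receptor gene, 82.8 kb from the shared SMG9 cluster. The others were MMP14, a membrane metalloproteinase gene (22.1), LAMC1 (24.2), ITGB6 (18.1), ITGA3 (17.8) and SPARC (7.55).

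TGFBR2, the type II receptor for TGF-beta, was the one gene of 25 on the list of epithelial-mesenchymal transition and mesenchymal genes within reach of any cluster. The cluster was D4 only, intergenic at 9.08 kb from the start (chr3:30638901-30639010), with a score of 9.40 (rank 30 of 138), and its GRE is printed above. Luminal genes were reached in 3 of 20 cases by the parental list and in 0 by the D4 list, against 4.26% and 1.09% of all genes. These were ESR1, the estrogen receptor gene (at 20.6 kb), KRT7 (at 47.2 kb, by a KRT86 intronic cluster) and KRT19. KRT19 was reached at 96.4 kb by the KRT17 promoter cluster already counted for the basal keratins, so it is not an independent count. Reach of the remaining lists was at most 1 gene per list: CCL20 of 24 inflammatory genes (parental only), CYP1B1 of 18 xenobiotic and stress genes (parental only and shared), SREBF1 of 18 lipid and sterol genes (parental only and shared) and PPARGC1B of 16 coactivators and corepressors (parental only). Of the marker lists of other cell types, 1 of 24 blood cell genes was reached, CD14, 31.4 kb from the shared WDR55 promoter cluster, and 0 of 21 neuronal genes.

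**Figure D4:**
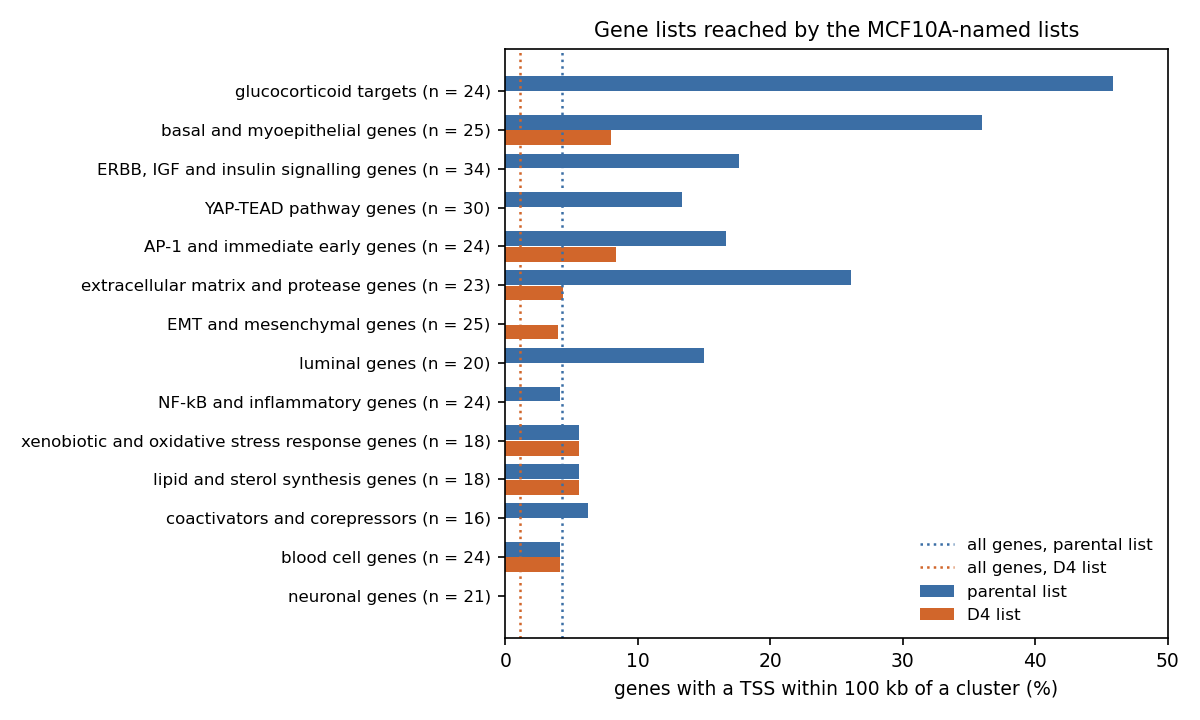
Percentage of the tested genes of each list with a TSS within 100 kb of a cluster (horizontal axis) for the parental and the D4 list (bars), with dotted lines at the percentages over all 18547 genes, 4.26 and 1.09. Glucocorticoid targets are at 45.8% for the parental list and have no bar for the D4 list.

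Clusters were narrow in all classes. The median width was 110 bp for parental only (quartiles 60 and 260), 60 bp for shared (10 and 1535) and 60 bp for D4 only (10 and 410). Clusters of 10 bp, the smallest width in the files, were 23.9% of parental only, 41.8% of shared and 33.8% of D4 only. Those over 500 bp were 19.9%, 32.8% and 23.9%. The shared class thus had more of both extremes than parental only, by 17.9 points (6.06 to 30.4) at 10 bp and by 12.98 points (2.14 to 25.4) over 500 bp. D4-only intervals against parental only included 0 for both. Above the median score of their list, 8 of 35 D4-only clusters (22.9%) and 31 of 216 parental-only clusters (14.4%) were over 500 bp. Of the 41 clusters of at least 3 kb, 25 were parental only, 11 shared and 5 D4 only, and 30 lay in the dense regions. A second match of the central 100 bp in the genome was found for 12 parental-only clusters (2.84%), 6 shared clusters (8.96%) and 1 D4-only cluster (1.41%). The D4-only one, 26.4 kb from IZUMO2 on chromosome 19, had 37 such matches.

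Linking clusters with gaps of at most 100 kb gave 325 loci, of which 263 were single clusters. Parental clusters alone made up 236 loci and D4-only clusters alone 40. Of the 89 loci with a D4 cluster, 49 also had a parental one. D4-only clusters lay within 10 kb of a cluster of the parental list in 12 of 71 cases (16.9%, 9.05 to 27.7%), and 9 of the 12 were in the dense regions. Outside them, the nearest were in PDE4DIP (1.69 kb), in the region assigned to THBS1 (2.64 kb) and near H3-7 (7.34 kb). A locus outside the dense regions with more than 1 D4-only cluster was found once, in ZBTB20 (chr3:114752101-114936710), with 2 D4-only and 2 parental-only clusters. PDE4DIP, which encodes a centrosome- and Golgi-associated scaffold, had the most clusters outside the dense regions, with 3 parental only, 3 shared and 1 D4 only over 135 kb (chr1:144913251-145047860). The TLN2 and TPM1 locus on chromosome 15, with genes of cytoskeletal proteins, had 5 parental-only clusters and 1 D4-only cluster. The locus of ZNF595 on chromosome 4 had 3 parental-only clusters and 1 shared cluster. A locus on chromosome 2 had the same counts, and its nearest gene, RP11-685N3.1, started at least 1221 kb away. All 4 clusters of that locus had another match in the genome. The loci of NBPF1 on chromosome 1 and of ERGIC1 and DUSP1 on chromosome 5 had 4 parental-only clusters each.

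The dense regions, 3 stretches of 2 to 3 Mb in which clusters crowd, held 112 parental-only clusters (26.5%, 22.3 to 31.0%), 32 shared clusters (47.8%, 35.4 to 60.3%) and 18 D4-only clusters (25.4%, 15.8 to 37.1%). The shared class exceeded parental only by 21.3 points (8.96 to 33.7 points) and D4 only by 22.4 points (6.35 to 37.0 points). D4 only and parental only differed by 1.13 points with an interval that includes 0. Above the median D4 score, 9 of 35 D4-only clusters (25.7%, 12.49 to 43.26%) were in the dense regions. Of the parental-only clusters above the median parental score, 28 of 216 were (12.96%, 8.79 to 18.19%). With classes assigned again within the clusters above the median, the difference was 14.3 points (2.81 to 28.2). Shared clusters that passed in the D4 list alone then counted as D4 only. The 3 Mb of chromosome 8 that end at 130 Mb, around MYC, POU5F1B and the long noncoding RNA genes of that interval, held 53 parental-only, 14 shared and 7 D4-only clusters. Chromosome 10 from 73 to 75 Mb, with CDH23, PSAP, DDIT4 and MCU, held 37, 8 and 9. Chromosome 17 from 17 to 19 Mb, with RAI1, SREBF1 and TOM1L2, held 22, 10 and 2. MCU encodes the pore of the mitochondrial calcium uniporter, and DDIT4 an inhibitor of mTOR signalling. Among genes, the body of MCU held 4 parental-only, 1 shared and 2 D4-only clusters, and those of RAI1 and TOM1L2 each held 4 parental-only and 2 shared ones and no D4-only cluster.

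The D4 list had its highest score of all in the chromosome 8 region, at a shared cluster of 5510 bp that lies 387 kb from the MYC start (chr8:129137201-129142710; 42.1 in the D4 list, and 8.58 with rank 366 of 490 in the parental list). The highest-scored parental-only cluster there was 6410 bp wide, 62.8 kb from MYC (chr8:128678501-128684910), with a score of 80.4. The nearest shared cluster to MYC lay at 15.0 kb (rank 300 in the parental and 133 in the D4 list). A D4-only cluster of 6610 bp (chr8:128346801-128353410) ended 0.09 kb before a shared cluster of 6560 bp. The D4 list thus held both of these neighbours and the parental list only the shared one. AP-1 was in 24.1% of parental-only, 21.9% of shared and 16.7% of D4-only clusters inside them, and in 42.4%, 22.9% and 49.1% outside. The GRE was in 14.5%, 2.86% and 3.77% outside. The shared class was at 22.9% for AP-1 outside the dense regions as well, against 22.4% overall. Chromosome copy number and input signal of these regions were not analysed here.

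**Figure D5:**
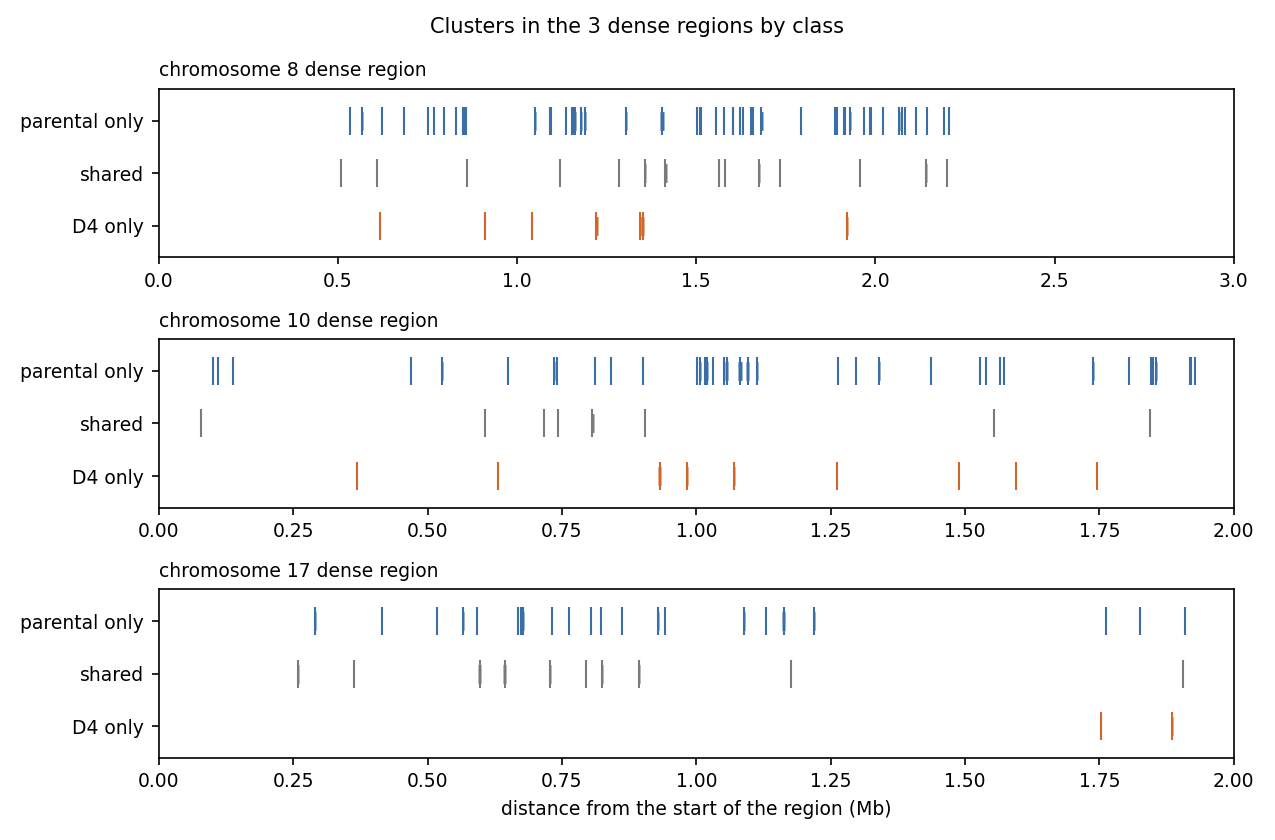
Position of each cluster (ticks) by its distance from the start of the region (horizontal axis, Mb) in the 3 dense regions, with a row for each class. Parental-only clusters are spread over most of each region, and the 2 D4-only clusters of the chromosome 17 region lie at its far end.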

How the data were processed

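AIB1 ChIP-seq clusters of MCF10A, MCF10A-D4, MCFDCIS and MCFDCIS-D4 cells were used as deposited, 1 list per group, with input DNA as the reference per the labels. Each row is a region and a score by the authors, whose definition no label or header gives. No source used here gives the caller, the read depth or the way the 3 ChIP samples of a group were combined. Coordinates are hg19 (GRCh37) per the submitters' processing notes, and all of them lay within the chromosomes of that build. The members, dense regions, gene lists and motifs were chosen with earlier results of these data known.

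Clusters of the lists were overlapped with a minimum of 1 bp. Transcription start sites, exons and introns were those of GENCODE 44 lifted to GRCh37, restricted to the 20 chromosomes with clusters. Motifs were searched on both strands of the 500 bp around the middle of each cluster, which is wider than most clusters. Other matches of the central 100 bp in the genome were found with minimap2 2.31, counting alignments of 90 bp or more with 95% or more identical bases. Python 3.11.15 with pandas 2.3.3, numpy 2.4.6, scipy 1.17.1 and pysam 0.24.0 was used, and the counting was checked on simulated data. Shares carry exact Clopper-Pearson and differences Newcombe 95% intervals. There is no test over samples, because no value per sample was at hand. The precision is set by the number of clusters, and the depth per sample is unknown.

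Genes named are the 8 highest-scored clusters of each class, all shared and D4-only promoter clusters and the 10 highest-scored parental-only ones, up to 6 members per gene list, the loci with most clusters, the nearest neighbours between lists and the dense regions. Others were chosen after their positions were seen: the D4-only clusters at ACTN1 and H3-7, IZUMO2, and members of gene lists past the first 6. Alternatives were a score threshold at the median, other overlaps, widths, windows and annotations, and leaving out the dense regions or clusters with another match. Results for some genes that meet this rule are not reported here.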

Additional observations from a re-analysis of the deposited data

How the results depend on the processing

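Of 65 alternatives over 13 results, 54 were labelled unchanged and 11 moved. Unchanged meant within the 95% interval of the original value or, for counts of list genes, which have no interval, within a fixed ratio. Requiring 50% of both clusters to be covered could not change the shared parts, because all 67 overlaps had identical ends. Restricting each list to clusters above its median score gave a shared part of 18.46% of D4 and 4.979% of parental clusters, which falls by construction because a pair must pass in both lists. Classes were assigned again under this restriction, so a shared cluster whose score passed in 1 list only counted as D4 only or parental only. With these classes the D4-only minus parental-only difference was −41.02 points in the share also listed as parental under the MCFDCIS name. It was 14.33 points in the share in dense regions. The restriction left 44.44% of D4-reached genes also reached by parental clusters. Without the dense regions the shared parts were 39.77% and 10.12%, and 54.78% of D4-reached genes were also parental-reached. Counting starts of genes of any type gave a promoter difference of 2.893 points, and counting clusters wider than 10 bp in place of those over 500 bp gave −9.926 points. With genes assigned within 25 kb, 26 in place of 47 list genes lay near a parental cluster. The cause was not tested for these changes, other than the one by construction. No paired analysis was possible because each group is 1 list with no value per replicate, and for the same reason no replicate could be left out. Depth limits are unknown, since the lists give no read counts.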
